A study of Danio rerio with 6 samples.

Results

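The parvalbumins are small cytosolic proteins that bind calcium ions through EF-hand loops. Their transcripts were described here in RNA sequencing libraries labelled as zebrafish liver. The members were chosen by gene name, pvalb1 to pvalb9, and all rows that carried the same gene ID were summed. All 9 were found among the 36191 gene IDs of the tables, and all 9 passed the filter on low values (a mean of at least 1 FPKM over the libraries). The graphene oxide group (GO) held 3 libraries from fish treated with graphene oxide nanoparticles, a sheet-like carbon material. The control group (CK) held 3 libraries from fish labelled as control. All were wild-type AB fish aged 3 months, and the labels give neither dose, exposure time, sex nor the number of fish per library. Whether replicates were separate animals is not in the labels, so the p-values here measure a spread between libraries that may be technical.

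Parvalbumins buffer calcium. In fast skeletal muscle they take up calcium released from the sarcoplasmic reticulum and so speed relaxation, and in fish white muscle they are among the most abundant soluble proteins, known also as the main fish allergen. In the nervous system they shorten calcium transients in fast-firing neurons. Oncomodulin is a parvalbumin of sensory hair cells in mammals. Liver is not known as a tissue rich in parvalbumin. The rule sets muscle against neural members without naming them, so pvalb1, pvalb2, pvalb3 and pvalb4 were taken as the 4 muscle members and pvalb5, pvalb6, pvalb7, pvalb8 and pvalb9 as the 5 neural members, from general knowledge of zebrafish. In the RefSeq gene table (assembly GRCz12tu) pvalb8 and pvalb9 carry the synonyms ocma and ocmb, for oncomodulin. In the same table pvalb8, pvalb4, pvalb1 and pvalb5 follow one another as neighbouring protein-coding genes, and so do pvalb9, pvalb3 and pvalb2, while pvalb6 and pvalb7 stand apart. Muscle and neural members thus lie side by side in both runs.

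Total expected counts were 9739760 to 12998273 per library. Levels of a gene are compared between libraries as TMM-scaled CPM (counts per 1000000 counts of a library, with library sizes scaled by the trimmed mean of M-values). Against the liver label, a list of 36 fast muscle genes summed to 82375, 82818 and 62828 CPM in the graphene oxide libraries and 91542, 92158 and 59887 CPM in the control libraries. A list of 25 hepatocyte genes was led by the apolipoprotein genes apoa2 and apoa1a, where led means the highest mean TPM. In CPM its highest tested gene was rbp4 in replicates 1 and 2 of both groups and apobb.1 in replicate 3. The list summed to 716, 700 and 17152 CPM with graphene oxide, and the control libraries had 1659, 1648 and 15733 CPM. In both groups replicate 3 was thus unlike the other 2 libraries. Exocrine pancreas genes, led by prss59.2 and try, were at 3272 and 3143 CPM in the graphene oxide and control libraries of replicate 3 and at 9.15 to 14.5 CPM elsewhere, and intestine genes, led by fabp2 and apoa4b.1, at 2456 and 2331 CPM there, while the other 4 libraries had 89.2 to 206 CPM. Erythrocyte genes, led by the embryonic globin genes hbbe1.1 and hbae3, were at 1217, 1176 and 1244 CPM with graphene oxide and at 795, 771 and 1183 CPM in control. Of the 12 erythrocyte symbols listed 10 were found and 7 passed the filter. The globin genes among these were hbbe1.1, hbae3, hbbe2 and hbae5, with no adult globin gene. How this relates to the labelled age was not tested. Replicates 1 and 2 of a group differed by little more than sampling noise, as the chi-square over degrees of freedom was 1.56 for graphene oxide and 1.62 for control. The members are therefore described over all 6 libraries and for replicates 1 and 2. These are bulk samples, in which fewer cells of a type and less RNA per cell cannot be told apart.

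The 2 muscle genes pvalb2 and pvalb1 were among the most abundant transcripts of every library. On the TPM scale, which accounts for transcript length, pvalb2 (gene ID 58028) stood at 21566, 21371 and 18672 TPM in graphene oxide replicates 1, 2 and 3 and at 24285, 24121 and 20581 TPM in control replicates 1, 2 and 3. With its 2 rows summed it ranked 1 of all gene IDs in each library. Either row alone, at 9336 to 12142 TPM, was below pvalb1. The muscle gene pvalb1 (402805) stood at 17166, 16760 and 15034 TPM with graphene oxide and at 20252, 19977 and 15127 TPM in control, and ranked 2 or 3. The next member, pvalb4 (337731), was an order of magnitude lower, at 1397, 1414 and 1818 TPM with graphene oxide and 1389, 1345 and 1978 TPM in control. The fourth muscle member, pvalb3 (100000771), was the lowest of the family by mean TPM, at 34.6 to 46.5 TPM with graphene oxide and 30.2 to 48.1 TPM in control, from 127 to 237 counts a library. Together pvalb1 and pvalb2 made up 95.7% to 97.6% of the counts of the muscle members.

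**Figure D1:**
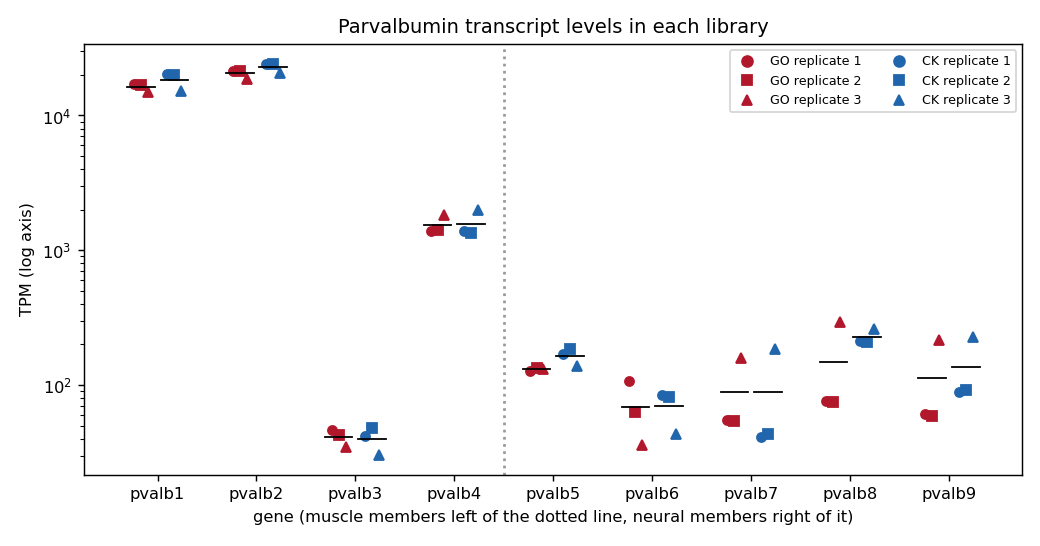
Transcript level (TPM, log axis) of the 9 parvalbumin genes in each library, with graphene oxide (GO, red) left of control (CK, blue), replicates 1, 2 and 3 as circles, squares and triangles, and a black line at each group mean. The muscle genes pvalb1 and pvalb2 lie between 15034 and 24285 TPM, while the neural members lie between 36.2 and 292 TPM, with replicate 3 high for pvalb7 and pvalb9.

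The neural members were far less abundant and their order changed with the library. The oncomodulin-type gene pvalb8 (360208) ran from 74.6 to 292 TPM over both groups, pvalb5 (335623) from 127 to 185 TPM, the second oncomodulin-type gene pvalb9 (360209) up to 229 TPM, pvalb7 (402807), a marker of zebrafish cerebellar Purkinje cells, from 40.9 to 184 TPM and pvalb6 (402806) from 36.2 to 108 TPM. By mean TPM the family ran pvalb2, pvalb1, pvalb4, pvalb8, pvalb5, pvalb9, pvalb7, pvalb6 and pvalb3. The first 4 held this order in 6 of 6 libraries, with pvalb2 at a median of 1.25 and at most 1.36 times pvalb1. Further down, pvalb8 was above pvalb5 and pvalb5 above pvalb9 in 4 of 6 libraries each, and pvalb7 was above pvalb6 in 2 of 6. The order of these neighbours thus depended on the library. pvalb8 was below pvalb5 only in graphene oxide replicates 1 and 2. pvalb9 was above pvalb5, and pvalb7 above pvalb6, only in replicate 3 of both groups. The order of pvalb2 and pvalb1 rests on summing rows, since pvalb2, pvalb3 and pvalb9 each stood on 2 rows. The rows of pvalb2 and of pvalb9 held equal values in 6 of 6 libraries and those of pvalb3 in 3 of 6. Single rows held counts that were not whole, while the sum over rows was whole to within 0.01 for every member in every library. No sharing of reads between different members was thus visible in these sums.

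Over all 6 libraries every member had a fitted fold change below 0, though pvalb3, pvalb7 and pvalb9 turned above it under some alternatives, and none passed the test. The edgeR quasi-likelihood test called 0 of 19313 genes (0%), with 438 at an unadjusted p under 0.05. The 9 members had log2 fold changes of -0.74 for pvalb8 to -0.08 for pvalb7, a median of -0.33 where all genes tested had a median of -0.0006, and an adjusted p of 0.99988 each. The value of pvalb8 was -1.76 without graphene oxide replicate 3 and -0.42 and -0.41 without graphene oxide replicates 1 and 2 in turn. Of the members, pvalb2 and pvalb5 had an unadjusted p under 0.05 (0.0400 and 0.0309). With the replicate number as a block, edgeR again called 0 genes (0%), and the adjusted p of the members was 0.244 to 0.988. DESeq2 called 10 genes without the block and 61 with it, and no member in either fit. Of the 9 members, 6 (pvalb1, pvalb2, pvalb4, pvalb5, pvalb6 and pvalb9) were lower in all 3 same-numbered pairs in CPM, as were 19.7% of all genes. In CPM the groups did not overlap for pvalb2 and pvalb5, both lower with graphene oxide, 2 of 9 members where 4.09% of all genes did so.

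These directions depend on the scale. On the TPM scale the median gene was itself higher with graphene oxide, by 0.21 and 0.22 on the log2 scale in pairs 1 and 2 and by 0.03 in pair 3 (19124 genes above 0 in every library). In TPM as deposited, 4 members (pvalb1, pvalb2, pvalb5 and pvalb9) were lower in all 3 pairs, where 6.89% of all genes were, and only pvalb5 had groups that did not overlap (1.26% of all genes). pvalb4 was then higher with graphene oxide in pairs 1 and 2, by 0.01 and 0.07, and lower by 0.12 in pair 3. Less the median gene of each pair its differences were -0.20, -0.15 and -0.15. Counted in that way, 5 members (pvalb1, pvalb2, pvalb4, pvalb5 and pvalb9) were below the median gene in all 3 pairs, as were 19.2% of genes. pvalb6 missed both counts of 3 pairs only in pair 1, where a row of 0.96 counts was given 46.6 TPM. Without that row graphene oxide replicate 1 was at 61.5 TPM, against 84.7 TPM in control replicate 1. The differences in CPM below are thus relative to the bulk of the genes.

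Within replicates 1 and 2 the muscle members pvalb1, pvalb2 and pvalb4 fell with graphene oxide in CPM, though pvalb4 was higher there in TPM as deposited. pvalb1 was at 6617, 6444 and 6063 CPM in graphene oxide replicates 1, 2 and 3, against 9014, 8889 and 6146 CPM in control. The first 2 control libraries stood above all others, and the replicate 3 libraries of both groups lay close together. The log2 fold change in replicates 1 and 2 was -0.45 ± 0.01 (SE, edgeR, adjusted p = 9.69e-109), and the difference in the replicate 3 pair was -0.02. pvalb2 was at 7770, 7673 and 7033 CPM with graphene oxide and at 10099, 10017 and 7799 CPM in control. Here each graphene oxide library lay below each control library, though graphene oxide replicate 1 was close to control replicate 3, and in TPM graphene oxide replicates 1 and 2 lay above control replicate 3. Its log2 fold change in replicates 1 and 2 was -0.38 ± 0.01 (SE, adjusted p = 9.04e-93), with -0.15 in the replicate 3 pair.

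The other muscle members moved less. pvalb4 was at 412, 414 and 559 CPM with graphene oxide and 472, 455 and 609 CPM in control. It was highest in replicate 3 of both groups, unlike pvalb1 and pvalb2, and its groups overlapped. The log2 differences were -0.20, -0.14 and -0.12 in pairs 1, 2 and 3, and the fold change in replicates 1 and 2 was -0.17 ± 0.03 (SE, adjusted p = 4.07e-07). pvalb3 was at 15.8, 14.4 and 12.5 CPM with graphene oxide and 16.5, 18.8 and 10.8 CPM in control. Its groups overlapped and it did not pass in replicates 1 and 2, at -0.24 ± 0.13 (SE, adjusted p = 0.188).

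**Figure D2:**
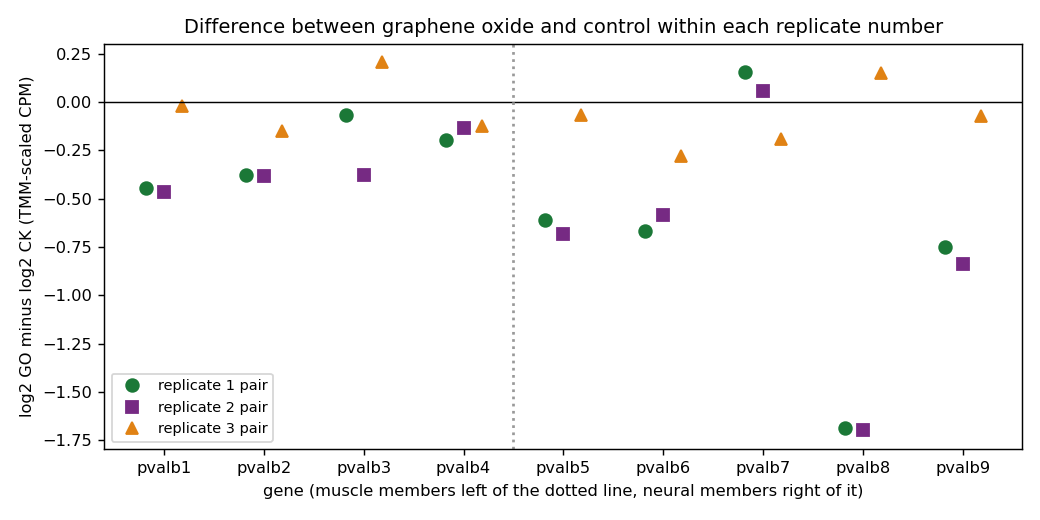
Difference between graphene oxide and control (log2 of TMM-scaled CPM, prior count 2) within each replicate number for the 9 members, with replicate pairs 1, 2 and 3 as circle, square and triangle. The pairs of replicates 1 and 2 lie close together for most members, though not for pvalb3, at -0.07 and -0.38. pvalb8 is lowest at -1.69 and -1.70, while the replicate 3 pair lies between -0.28 and 0.21 for every member.

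Most fast muscle markers fell in CPM beside the muscle members in replicates 1 and 2. Of the 36 fast muscle genes 24 fell and 3 rose there, with a median log2 fold change of -0.12, where 12.0% of all genes tested fell and 12.9% rose, at a median of -0.002. With no scaling beyond total counts, 8.56% of all genes fell and 17.1% rose. The summed TPM of the fast muscle list turned the other way, at 74159 and 74059 TPM in graphene oxide replicates 1 and 2 and 72686 and 72689 TPM in control, a smaller difference than that of the median gene on that scale. Over all 6 libraries edgeR called no gene of any list, and the median was -0.06 for fast muscle genes, -0.10 for neuron genes and -0.09 for hair cell genes. The alpha-actin gene actc1b had -0.08 and the fast myosin light chain gene mylpfa -0.21. The muscle members came to 54.2, 53.5 and 71.4 TPM per 100 TPM of the fast muscle list in graphene oxide replicates 1, 2 and 3, against 63.2, 62.6 and 80.5 in control. The ratio was lower with graphene oxide in each of the 3 pairs, and higher in replicate 3 than in replicates 1 and 2 of either group. Of 16 slow and heart muscle genes 9 rose and 1 fell, with a median of 0.35. The slow myosin genes smyhc1 and myl10 had 0.13 and -0.05, the second of which did not pass (adjusted p = 0.288).

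Other genes of muscle calcium handling, the partners of parvalbumin in the contraction cycle, did not move in 1 direction. Of 31 tested genes 10 fell and 5 rose in replicates 1 and 2, where 12.0% of all genes fell and 12.9% rose. The median log2 fold change was -0.04 there and -0.002 over all 6 libraries. The fast troponin C gene tnnc2, which carries the calcium signal to the thin filament, fell by 0.36 on the log2 scale and was at 3395, 3439 and 2435 CPM with graphene oxide and at 4380, 4410 and 2425 CPM in control. As with pvalb1, its replicate 3 libraries were level. The calcium pump gene atp2a1, which returns calcium to the sarcoplasmic reticulum, rose by 0.09 and was at 4086, 4079 and 3829 CPM with graphene oxide and at 3836, 3857 and 3352 CPM in control. The slow troponin C gene tnnc1b, the calmodulin gene calm1a and the pump gene atp2a1l had log2 fold changes of -0.37, -0.28 and -0.33 (adjusted p = 1.70e-15, 2.30e-18 and 3.16e-27). In the replicate 3 pair atp2a1l turned the other way, with 926 CPM in the graphene oxide library and 538 CPM in the control library.

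Among the neural members pvalb8 showed the largest difference of the family, in replicates 1 and 2 and not in replicate 3. It was at 35.4, 35.0 and 143 CPM in graphene oxide replicates 1, 2 and 3, against 114, 114 and 129 CPM in control. The graphene oxide libraries of replicates 1 and 2 stood far below the other 4 libraries, and the highest value of all was also a graphene oxide library. In replicates 1 and 2 control was 3.24 times graphene oxide, a log2 fold change of -1.70 ± 0.07 (SE, edgeR, adjusted p = 5.32e-80), while the replicate 3 pair had 0.15. pvalb9 moved the same way by less. It was at 16.2, 15.5 and 60.0 CPM with graphene oxide and 27.2, 27.9 and 63.1 CPM in control, with -0.80 ± 0.12 in replicates 1 and 2 (SE, adjusted p = 9.38e-10) and -0.07 in the replicate 3 pair. Within a library pvalb8 was 1.24, 1.26 and 1.34 times pvalb9 in TPM with graphene oxide and 2.37, 2.29 and 1.14 times in control, so that control replicates 1 and 2 stood apart in this ratio.

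Markers of hair cells, the cells in which oncomodulin is best known, did not show a fall of this size. Of 25 hair cell genes 14 passed the filter. In replicates 1 and 2 none of these rose and 1 fell, where 12.9% of all genes rose and 12.0% fell. Their median log2 fold change was -0.20. The gene that fell was otofa, one of the 2 otoferlin genes needed for hair cell transmitter release, at 40.0, 40.3 and 31.0 CPM with graphene oxide and 49.5, 51.5 and 38.6 CPM in control (log2 fold change -0.33, adjusted p = 0.000321). It was named after its value was seen. The other otoferlin gene, otofb, had -0.25 (adjusted p = 0.152) and was at 16.9, 14.8 and 40.6 CPM with graphene oxide and 19.0, 18.7 and 41.8 CPM in control. It too was named after its value was seen. The most abundant genes of this list by mean TPM were the calcium pump gene atp2b1a and tmie, with -0.06 and -0.30, neither past the threshold (adjusted p = 0.387 and 0.331). In CPM tmie was low, at most 7.1 CPM, and below otofa in every library. The summed list was at 318, 318 and 340 CPM with graphene oxide and 337, 358 and 353 CPM in control, and none of its 25 members was at 0 counts in any library. Much of that sum was atp2b1a, at 135, 132 and 125 CPM with graphene oxide and 134, 143 and 124 CPM in control. The hair cell genes pou4f3, atoh1a and slc17a8, named for their low levels, reached at most 4.8, 4.3 and 2.3 CPM. The list was thus a weak measure of hair cells in these libraries. In TPM the list was higher with graphene oxide in replicates 1 and 2, at 124 and 123 TPM, than in control, at 115 and 118 TPM. pvalb8 and pvalb9 together came to 110, 109 and 437 TPM per 100 TPM of the hair cell list with graphene oxide and 261, 255 and 427 in control. Many genes of the digestive organs fell in the same libraries. In replicates 1 and 2, 17 of 22 hepatocyte genes fell and none rose (median log2 fold change -1.49), as did 8 of 12 intestine genes while 1 rose (-0.94). For 17 hepatocyte and 7 intestine genes the effect in the replicate 3 pair was higher than in replicates 1 and 2, as for pvalb8 and pvalb9. Of 16 exocrine pancreas genes none was called in either comparison, though their sum was only 9.15 to 14.5 CPM in replicates 1 and 2. The part of these tissues in the levels of pvalb8 and pvalb9 was not tested.

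**Figure D3:**
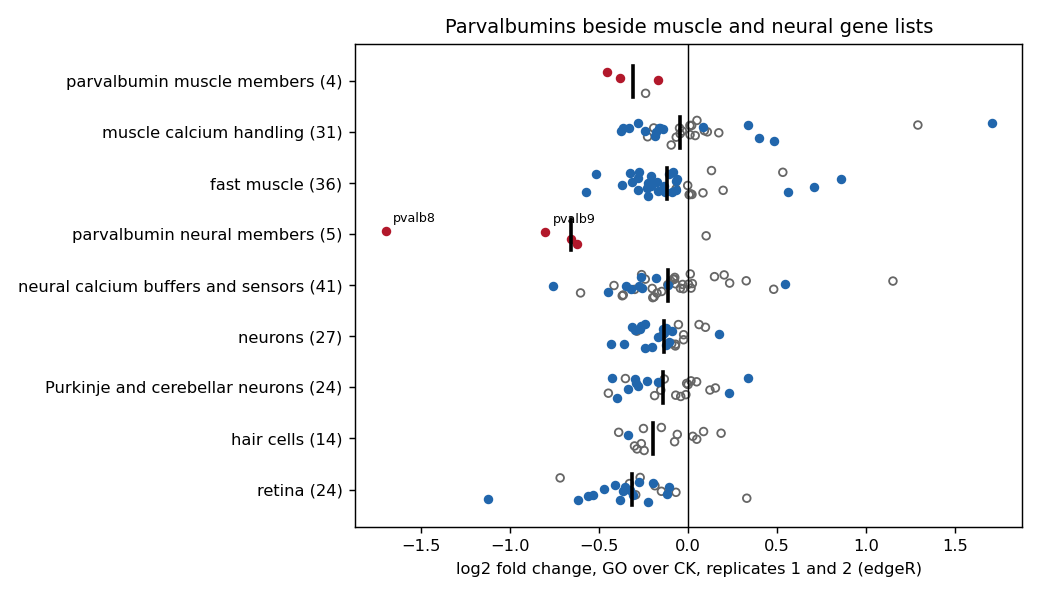
Log2 fold change of graphene oxide over control in replicates 1 and 2 (edgeR) for the tested genes of each list, with the number of genes in brackets, filled points for an adjusted p under 0.05, open points otherwise and a black bar at each list median. pvalb8 at -1.70 lies below every hair cell gene plotted, and the median of the neural members (-0.66) lies below those of the neuron (-0.14) and hair cell (-0.20) lists. The hair cell list is a weak measure of hair cells in these libraries. The hepatocyte and intestine lists, with medians of -1.49 and -0.94, are not plotted.

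The neural members pvalb5 and pvalb6 also fell in replicates 1 and 2. pvalb5 was at 42.3, 44.0 and 45.8 CPM with graphene oxide and 64.8, 70.8 and 48.0 CPM in control, and the groups did not overlap. The log2 fold change was -0.66 ± 0.07 (SE, adjusted p = 3.64e-16) in replicates 1 and 2 and -0.07 in the replicate 3 pair. pvalb6 was at 37.0, 37.6 and 22.8 CPM with graphene oxide and 58.7, 56.5 and 27.7 CPM in control. Unlike pvalb7, pvalb8 and pvalb9 it was lowest in replicate 3 of both groups. Its fold change was -0.62 ± 0.08 (SE, adjusted p = 6.02e-13), with -0.28 in the replicate 3 pair, the most negative of any member in that pair. The TPM scale differed for this gene, because a row holding 0.96 counts in graphene oxide replicate 1 was given 46.6 TPM. With that row the library stood at 108 TPM, and without it at 61.5 TPM, against 84.7 TPM in control replicate 1.

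pvalb7 did not pass in any direction. It was at 32.1, 31.6 and 91.9 CPM with graphene oxide and 28.7, 30.3 and 105 CPM in control. The replicate 3 libraries stood about as far above the rest in both groups, at 2.89 times the mean of replicates 1 and 2 with graphene oxide and 3.55 times in control. The log2 fold change in replicates 1 and 2 was 0.10 ± 0.10 (SE, adjusted p = 0.481). Its 2 rows did not keep 1 ratio. The first row in the table held 27.5%, 25.9% and 43.6% of its counts in graphene oxide replicates 1, 2 and 3 and 15.8%, 18.2% and 50.7% in control, and the tables do not say what the rows stand for. Taking the row with the highest mean FPKM alone turned the fold change of pvalb7 to -0.07 in replicates 1 and 2.

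Neuron markers were lower in replicate 3, while pvalb7, pvalb8 and pvalb9 were not. The neuron list summed to 7113, 7193 and 4004 CPM with graphene oxide and 7872, 7882 and 4188 CPM in control. A list of Purkinje and cerebellar genes was at 1287, 1289 and 869 CPM with graphene oxide and 1446, 1440 and 931 CPM in control, and a list of olfactory neuron genes at 292, 289 and 171 CPM with graphene oxide and 284, 272 and 179 CPM in control. In contrast to these lists, pvalb9 was 3.79 and 2.29 times and pvalb8 4.08 and 1.13 times its level in replicates 1 and 2 in replicate 3 of graphene oxide and control. pvalb6, at 0.612 and 0.481 times, went with the lists, and pvalb5, at 1.06 and 0.708 times, did so in control only. Retina genes were at 6482, 6443 and 4794 CPM with graphene oxide and 8150, 8175 and 5802 CPM in control. What part any of these tissues has in the parvalbumin levels was not tested.

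In replicates 1 and 2, 16 of 27 neuron genes fell and 1 rose (median log2 fold change -0.14), as did 8 and 2 of 24 Purkinje and cerebellar genes (-0.14), 16 and 0 of 24 retina genes (-0.32) and 1 and 1 of 7 olfactory genes (-0.08). Of all genes tested 12.0% fell and 12.9% rose. The summed TPM of the neuron list was higher with graphene oxide in replicates 1 and 2, at 4299 and 4264 TPM, than in control, at 4197 and 4164 TPM, again a smaller difference than that of the median gene. The synuclein gene sncb and the stathmin gene stmn1b, the most abundant of the neuron list by mean TPM, fell by 0.27 and 0.36 on the log2 scale. The transcription factor gene neurod1 and pcp4a, a calmodulin-binding Purkinje cell gene, fell by 0.29 and 0.43, and the cone opsin genes opn1sw1 and opn1lw2 by 0.36 and 0.20. The olfactory genes ebf3a and ompa had 0.11 and -0.48. Of 41 other neural calcium buffers and sensors 9 fell and 1 rose, with a median of -0.11, where the neural parvalbumins had a median of -0.66. The calretinin gene calb2b was at 230, 224 and 106 CPM with graphene oxide and 278, 271 and 131 CPM in control, a log2 fold change of -0.27 ± 0.04 (SE, adjusted p = 5.37e-12). Its paralog calb2a had -0.03 (adjusted p = 0.692) and the visinin-like gene vsnl1b 0.01 (0.877). The S100-type gene s100t fell by 0.76 and was at 58.5, 57.0 and 40.5 CPM with graphene oxide and at 99.6, 95.8 and 44.8 CPM in control, and the recoverin gene rcvrn2 fell by 0.11 (adjusted p = 0.0209).

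The sums of muscle and of neural members both differed within replicates 1 and 2, and the neural sum by more. The word neural names the members chosen and not a measured tissue. Their sum was highest in replicate 3 of both groups, where the sum of the neuron list was lowest. The muscle members held 1.49% (95% Wilson interval 1.48% to 1.50%), 1.46% (1.46% to 1.47%) and 1.38% (1.38% to 1.39%) of the counts in graphene oxide replicates 1, 2 and 3, against 1.90% (1.89% to 1.91%), 1.88% (1.87% to 1.89%) and 1.48% (1.47% to 1.49%) in control. The neural members held 0.0164% (0.0156% to 0.0172%), 0.0165% (0.0158% to 0.0172%) and 0.0369% (0.0357% to 0.0380%) with graphene oxide, against 0.0285% (0.0274% to 0.0295%), 0.0290% (0.0281% to 0.0300%) and 0.0379% (0.0367% to 0.0390%) in control. These intervals cover counting error only. Per 1000 CPM of muscle members there were 11.0, 11.3 and 26.6 CPM of neural members with graphene oxide and 15.0, 15.4 and 25.6 CPM in control. The log2 difference of this ratio was -0.45 and -0.46 in pairs 1 and 2 and 0.06 in pair 3. It moved with the choice of members. With pvalb6 and pvalb7 alone as the neural members and pvalb1 and pvalb2 as the muscle members, the mean log2 difference of the ratio over the 3 pairs was 0.01 ± 0.12, against -0.28 ± 0.29 with all 9 (SD of 3 pairs). Replicates 1 and 2 of a group were nearly alike, so this SD is not a spread of 3 independent pairs.

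**Figure D4:**
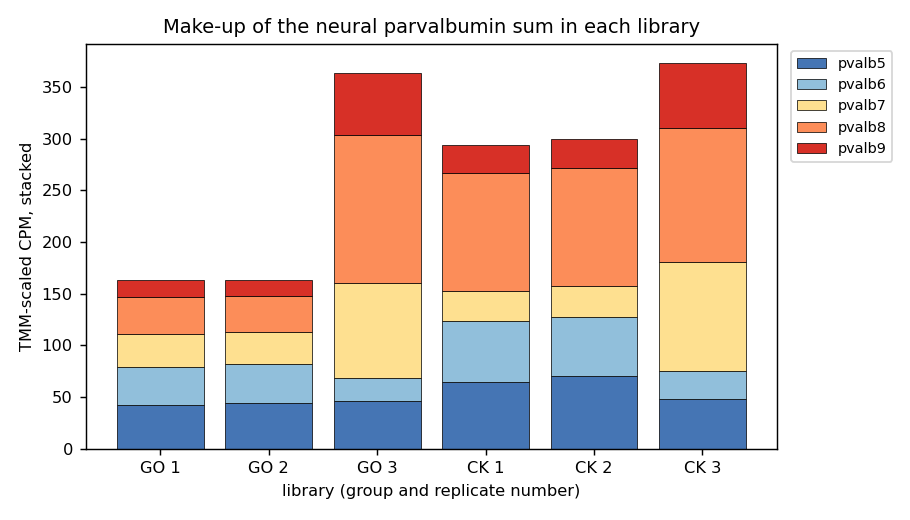
Summed level (TMM-scaled CPM) of the 5 neural members in each library, stacked by gene, with graphene oxide (GO) libraries left of control (CK) libraries. The sums are 163, 164 and 364 CPM in graphene oxide replicates 1, 2 and 3 and 294, 299 and 373 CPM in control, and the pvalb8 share of counts is 21.7% and 21.3% in graphene oxide replicates 1 and 2 against 38.9% and 38.0% in control. The sum is highest in replicate 3 of each group, where the neuron list is lowest, so it is not a measure of neural tissue.

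In replicates 1 and 2 taken without replicate 3, 7 of the 9 members fell and none rose, 3 of 4 muscle and 4 of 5 neural members, where 12.0% of the 19313 genes tested fell. That test rests on the small spread between replicates 1 and 2, and whether these are separate fish is not stated. The difference between the pairs was itself tested in a fit with an interaction term, whose spread also comes from replicates 1 and 2 alone. For 5 members (pvalb1, pvalb2, pvalb5, pvalb8 and pvalb9) the graphene oxide effect in the replicate 3 pair was higher than in replicates 1 and 2 (6.63% of all genes, edgeR), and for none was it lower (7.59%). DESeq2 called 3 of them, pvalb1, pvalb2 and pvalb8 (2.23% of all genes). For pvalb4 the difference between the pairs was 0.04 ± 0.05 (SE, adjusted p = 0.646), and it did not pass.

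The genes whose levels across the 6 libraries were most like each member were searched among 10868 named genes with a mean of at least 10 CPM, by the root mean square difference of centred log2 CPM. All profiles share the same 6 libraries. The closest to pvalb2 was vps29 at 0.017, with 41.0, 41.3 and 38.4 CPM with graphene oxide and 53.5, 53.4 and 41.4 CPM in control, and the closest to pvalb1 was dpy30 at 0.033. The next were rp1l1a and cnih4 for pvalb2 and rtn2b and the ribosomal protein gene rplp2 for pvalb1. For pvalb3 they were cntn3a.1, bcat1 and foxd1, and for pvalb4 prkca, ier3ip1 and ssr3. The neural member pvalb5 lay closest to the ribosomal protein genes rpl29 and rpl36a and to myeov2, pvalb6 to cacng8a, clk4a and tmsb, and pvalb7 to anxa5b, glud1b and ppip5k1b.

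The closest profile was that of a keratin gene for both pvalb8 and pvalb9, though by little for pvalb9. For pvalb8 it was krt17, at 108, 114 and 288 CPM with graphene oxide and 324, 341 and 278 CPM in control. It fell by 1.58 on the log2 scale in replicates 1 and 2. As krt17 was picked by its likeness to pvalb8 in these same libraries, that fall is not a separate result. The likeness was loose, at a root mean square difference of 0.26, and anxa1c and tagln followed at 0.39 and 0.41. For pvalb9 it was krt97 at 0.119, with 75.1, 76.1 and 334 CPM with graphene oxide and 140, 146 and 375 CPM in control. Next came enosf1 and tagln, about as close at 0.123 and 0.124. The skin list, which also holds krt17, summed to 23312, 23443 and 17227 CPM with graphene oxide and 26674, 26420 and 25835 CPM in control, led by krt4 and cyt1. Of its 14 genes 8 fell and 6 rose in replicates 1 and 2 (12.0% and 12.9% of all genes).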

How the data were processed

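The 6 tables, 1 a library, held 43106 rows. Expected counts as deposited are estimates and were not always whole on single rows. The authors also gave TPM and FPKM, named so in the file headers, both scaled for length and depth, and a library's TPM summed to 1000000. Bowtie2 2.3.2 and GRCz11 are named in the submitters' processing notes. Which program estimated the counts, and whether it used strand, is not given in the sources used, so close paralogs and overlapping genes are uncertain. Rows of the same gene ID were summed, which touched 5932 of 36191 gene IDs.

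Expected counts were rounded and tested with edgeR 4.0.16 (R 4.3.3; glmQLFit and glmQLFTest) after TMM scaling, with group as the only term, for 19313 genes with a mean FPKM of at least 1. SE is the log2 fold change divided by the root of F. Adjusted p-values are Benjamini-Hochberg values over all genes, two-sided, with a threshold of 0.05. The same test was run on replicates 1 and 2 and with an interaction of group with replicate 3. DESeq2 1.42.0, limma 3.58.1 on log2(FPKM + 1), other scalings, filters, a replicate block and leaving out libraries were alternatives. Pairing of same-numbered libraries was checked with the correlation, across genes, of deviations from the group means, which was 0.73, 0.75 and 0.87 for replicates 1, 2 and 3. Replicates 1 and 2 correlated as highly across numbers (0.72 and 0.74). The check thus set replicate 3 apart but did not tell pair 1 from pair 2. Libraries were paired by their shared replicate number alone, and the labels do not state a pairing.

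The members and lists were chosen with earlier results of these data known. All members are named. Of the calcium lists the 5 genes with the highest mean TPM are named and of each marker list the 2 highest, whatever their change. The edgeR fits by group and with the interaction term were run on simulated counts. The block, DESeq2 and limma fits, the sums and the likeness search were not. The simulated libraries were drawn independently from a shared mean profile, with no shift of replicate 3. They thus cannot show how the fits behave on libraries like these. A match in the RefSeq gene list was found for 30570 gene IDs, all 9 members among them. Its assembly differs from that of the files, so no coordinates are given.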

Additional observations from a re-analysis of the deposited data

Results flagged for a closer look

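For 5 members the graphene oxide effect in the replicate 3 pair differed from that in replicates 1 and 2 in a test of the difference itself (edgeR interaction term, adjusted over 19313 genes), whose spread comes from replicates 1 and 2 alone. The difference was 1.85 ± 0.10 on the log2 scale for pvalb8 (SE, adjusted p = 2.90e-43), 0.73 ± 0.15 for pvalb9 (7.68e-05) and 0.59 ± 0.13 for pvalb5 (0.000229). It was 0.44 ± 0.02 for pvalb1 (6.64e-40) and 0.23 ± 0.02 for pvalb2 (2.41e-17). In each case the replicate 3 pair was nearer to 0 or above it. Over the 10 alternatives the adjusted p ran from 4.25e-05 to 0.172 for pvalb5 and from 5.04e-05 to 0.14 for pvalb9, and DESeq2 gave the high end of both. Hepatocyte, pancreas and intestine genes differ in level between replicate 3 and the other libraries. In this test of the difference 17 of 22 hepatocyte and 7 of 12 intestine genes were called higher (6.63% of all genes). None of 16 exocrine pancreas genes was called. The part of these tissues in the differences of the members was not tested.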

How the results depend on the processing

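Over all 6 libraries no member was called under any of the 18 alternatives, while the count of genes called, 0 in edgeR, was 10 with DESeq2 and 61 with DESeq2 and the replicate block. The block changed no call of a member. In replicates 1 and 2 the count of members called was 7 under all 11 alternatives, each of which was a fit to counts. The count of genes called there, 4810, was 2047 with DESeq2 and 3037 to 3855 without a library, the lowest without graphene oxide replicate 2. For the difference between pairs, 2746 genes and 5 members were called, against 761 genes and 3 members with DESeq2 and 1758 to 2594 genes without a library, an alternative chosen after the data were seen, as was the count of directions on the TPM scale. The mean log2 difference of the neural over muscle ratio was 0.014 with pvalb1, pvalb2, pvalb6 and pvalb7 alone.

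Among the alternative fits the changes of sign were in pvalb3, pvalb4, pvalb7 and pvalb9, each in a comparison that it did not pass. No fit of replicates 1 and 2 used TPM. In TPM as deposited pvalb4 was higher with graphene oxide in pairs 1 and 2, and pvalb6 in pair 1, though both were called lower in replicates 1 and 2. Over all 6 libraries pvalb7 turned to 0.053 and 0.056 in limma on log2(FPKM + 1) and log2(FPKM + 0.1), 0.17 on log2(TPM + 1) and 0.053 in limma with the replicate block. Leaving out 1 library at a time, it ranged from -0.78 to 0.81, the highest without control replicate 3, and was 0.17 and 0.18 without graphene oxide replicates 1 and 2 in turn. pvalb3 turned to 0.051 on log2(TPM + 1) and ranged from -0.31 to 0.060 without a library, the highest without control replicate 2. pvalb9 ranged from -1.31 to 0.15, the highest without control replicate 3. With no change of sign pvalb8 ranged from -1.76 to -0.41, pvalb6 from -0.83 to -0.35 and pvalb4 from -0.31 to -0.0061 without a library. With the single row of highest mean FPKM pvalb7 was at -0.075 in replicates 1 and 2 and 0.075 for the difference between pairs. With no scaling beyond total counts that difference was -0.35 for pvalb7, past the threshold (adjusted p = 0.0378), and -0.015 for pvalb4. The cause was not tested.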
